A study of Mus musculus with 16 samples.

Results

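The genes of DNA break and mismatch repair described here are 38 members, taken by symbol from the GENCODE annotation of GRCm38, out of 21938 protein-coding genes. A member was read through its promoter peak, which is any ATAC-seq peak that overlaps the window between 1000 bp before and 100 bp after one of its transcription start sites. All 38 members had such a peak in at least 1 of 8 libraries, as did 10476 of the coding genes (47.8%). A total of 21 members (55.3%) had one in all 8 libraries, which was the case for 22.0% of the coding genes, or 46.1% of those with any peak.

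The study asked how chromatin and expression in activated B cells depend on Brg1, the ATPase of the SWI/SNF (BAF) nucleosome remodelling complex, which the gene Smarca4 encodes. Of its samples, the ATAC-seq groups are used here: 4 libraries of genotype Brg1fl/+ CD23Cre +/- (written Brg1 fl/+ here) and 4 of genotype Brg1fl/fl CD23Cre +/- (Brg1 fl/fl). Both groups are C57BL/6 mice that carry the Cre, which the CD23 promoter drives in mature B cells. By their labelled genotype, the controls also lose 1 copy of Brg1 and differ from the other group in the second copy. Splenic B cells, enriched by removing CD43-positive cells, were cultured with LPS at 10 µg/mL and IL-4 at 20 ng/mL. The sample labels give 72 hours of culture and the text of the series gives 96 hours. Each library was made from 50000 cells of adult mice, and no source used here states how many mice stand behind the libraries of a genotype. The lists hold no transcript of Smarca4, so the deletion itself was not checked here. The study reports a significant drop of Brg1 protein in B cells from Brg1fl/fl mice crossed to CD23-Cre.

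ATAC-seq marks open chromatin through the insertion of adapters by the transposase Tn5. The value used throughout is the fold of a peak, which is the pileup of fragments at its summit over the local background in the same library. The 8 lists held 6271 to 14614 peaks, and the background of the libraries, recovered from the deposited values, ran from 2.76 to 6.89 fragments per kb. The summit with the fewest fragments in a list had 5 to 8. A promoter missing from a list is not shown to be closed. Over promoter regions in all lists, the counts at the summits of Brg1 fl/+ libraries 1 and 2 differed by less than binomial sampling noise (variance ratio of 0.884, where 1 is sampling noise), and so did those of libraries 3 and 4 (0.756). The ratio was 0.881 to 1.19 for the other Brg1 fl/+ pairs, 0.800 to 0.862 within Brg1 fl/fl and 0.999 to 1.81 between the genotypes. Libraries of a genotype may therefore not be independent samples, p-values measure only the spread between them, and values with libraries 1 and 2 and libraries 3 and 4 averaged (2 against 2, as the names of the lists group them) are given beside each call made on the fold. Of 10 B cell marker genes, 3 (Ms4a1, Pax5 and Cd74) had a promoter peak in all 8 libraries and Ebf1 in 6, and those without any included Cd79b and Cd22. Of 10 T cell markers only Lck had a peak, in 1 library, and none of 10 myeloid or 8 erythroid markers had one.

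Mature B cells that switch their antibody class first receive deaminated cytosines from the enzyme AID in the switch regions of the heavy chain locus. Base excision and mismatch repair factors turn these lesions into double-strand breaks, the ATM pathway senses the breaks, 53BP1 and its partners protect the ends, and nonhomologous end joining ligates them. Homologous recombination and the Fanconi anaemia pathway repair breaks and crosslinks that arise when DNA is replicated, as it is in B cells dividing under LPS.

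The promoters were also read for sequence features that the choice of the genes did not use. The stretches below were chosen because they carry the short motifs described with them or belong to members with a called or uneven signal. All are GRCm38 reference sequence of RefSeq, 5′ to 3′ on the strand of the gene, outside annotated exons. Capitals mark matches to an E2F motif (TTTCCCGC, TTTGGCGC, TTTCGCGC or TTTGCCGC), an NRF1 motif (GCGCANGCG), an ETS motif (CCGGAAG), the NFY motif CCAAT or the E-box CACGTG, on either strand. The other motifs named below are not capitalised, and no motif searched contains another.

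The first 3 stretches hold an E2F motif: Bard1 at chr1:71103147-71103248 (minus strand), Prkdc at chr16:15637401-15637560 (plus strand) and Mdc1 at chr17:35841367-35841514 (plus strand).
Bard1: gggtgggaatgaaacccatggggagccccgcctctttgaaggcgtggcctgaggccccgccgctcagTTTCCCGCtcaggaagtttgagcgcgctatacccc
Prkdc: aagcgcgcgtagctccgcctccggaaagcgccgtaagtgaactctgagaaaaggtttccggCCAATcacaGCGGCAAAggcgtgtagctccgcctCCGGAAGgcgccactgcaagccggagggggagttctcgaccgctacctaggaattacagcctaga
Mdc1: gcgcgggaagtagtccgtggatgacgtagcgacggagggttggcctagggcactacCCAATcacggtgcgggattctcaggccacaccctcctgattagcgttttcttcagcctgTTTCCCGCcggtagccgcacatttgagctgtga

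The next 3 hold an NRF1 motif and belong to the member with the highest fold and to end joining genes: Atm at chr9:53536741-53536900 (minus strand), Lig4 at chr8:9976340-9976499 (minus strand) and Nhej1 at chr1:75124918-75125077 (minus strand). The Nhej1 stretch lies downstream of the start site nearest its summit, within the gene.
Atm: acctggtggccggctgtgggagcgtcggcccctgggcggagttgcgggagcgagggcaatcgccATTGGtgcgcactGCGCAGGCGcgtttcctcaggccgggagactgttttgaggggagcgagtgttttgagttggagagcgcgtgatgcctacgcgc
Lig4: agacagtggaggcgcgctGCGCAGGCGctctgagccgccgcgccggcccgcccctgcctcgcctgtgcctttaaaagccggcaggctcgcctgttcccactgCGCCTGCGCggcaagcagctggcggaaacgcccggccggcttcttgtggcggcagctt
Nhej1: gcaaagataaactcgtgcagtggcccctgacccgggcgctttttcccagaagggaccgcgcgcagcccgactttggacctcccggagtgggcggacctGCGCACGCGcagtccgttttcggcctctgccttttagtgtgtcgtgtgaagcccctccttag

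The last 2 are from the members whose detection differed most between the genotypes, Blm at chr7:80535120-80535279 (minus strand) and Mlh3 at chr12:85270408-85270538 (minus strand). The Mlh3 stretch lies downstream of the start site nearest its summit, within the gene.
Blm: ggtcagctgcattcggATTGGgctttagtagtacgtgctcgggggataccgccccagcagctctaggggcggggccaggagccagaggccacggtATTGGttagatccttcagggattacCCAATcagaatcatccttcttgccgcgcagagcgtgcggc
Mlh3: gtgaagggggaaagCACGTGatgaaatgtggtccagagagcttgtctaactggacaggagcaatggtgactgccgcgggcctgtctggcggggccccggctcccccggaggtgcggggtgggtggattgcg

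Within 100 bp of the summit, 6 of 38 members (15.8%) held an E2F motif, beside 4.45% of the 3981 promoter regions in all libraries and 3.38% of the 8887 promoter regions of coding genes in any library. The 6 members were Xrcc6, Prkdc, Mdc1, Bard1, Msh3 and Msh6, and all of them had a peak in all 8 libraries. An ETS motif was in 10 members (26.3%, beside 17.9% of the 3981 and 17.9% of the 8887 regions). CCAAT was in 18 (47.4%, beside 38.6% and 33.5%) and the SP motif GGGCGG in 31 (81.6%, beside 75.8% and 68.8%). Within 50 bp of the summit the SP motif was in 52.6% of members, beside 55.9% of the 3981 and 50.2% of the 8887 regions. NRF1 motifs were in 9 members (23.7%, beside 22.8% of the 3981 and 15.8% of the 8887 regions). Of the 21 members in all libraries, 8 (38.1%) held an NRF1 motif, and the like set for these is the 3981 regions. The cAMP response element TGACGTCA was found in 0 members (3.94% of the 3981 regions), with a match at Brca2 just beyond this window. The E-box was in 4 (9.97% of the 3981) and TTTGAA, the letters of the cell cycle homology region, in 1 (4.60%). These shares describe letters in a window and show no binding.

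Members' summits lay close to the start of transcription, as the plot of summit positions shows. The summit was within 100 bp of a start site of the member for 29 of 38 genes and over 200 bp away for 6. In 14 members (36.8%) a coding gene on the opposite strand started within 1000 bp of the summit, beside 20.8% of the 10476 coding genes with a peak. In 7 members the coding start nearest to the summit, within 100 bp, was that of another gene, so that the peak could not be assigned to the member alone. They were Brca1 (Nbr1), Prkdc (Mcm4), Lig1 (Zswim9), Mre11a (Ankrd49), Apex1 (Osgep), Apex2 (Pfkfb1) and Fancd2 (Emc3), with the nearer gene in brackets. The summit of Brca1 lay 761 bp upstream of its start and 62 bp from that of Nbr1, and the summit of Prkdc lay 397 bp upstream and 69 bp from the start of Mcm4, a subunit of the replicative helicase. Msh3 is among the 14, and its peak could not be assigned to it alone. The peak of Nhej1 lay at the start of a noncoding transcript of the gene, 78.4 kb from its nearest coding start. The median GC content within 100 bp of the summit was 63.8% in the members and 67.0% in the 8887 regions, the median ratio of observed to expected CpG was 0.942 and 0.870, and the median width of the combined region was 654 and 606 bp.

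**Figure D1:**
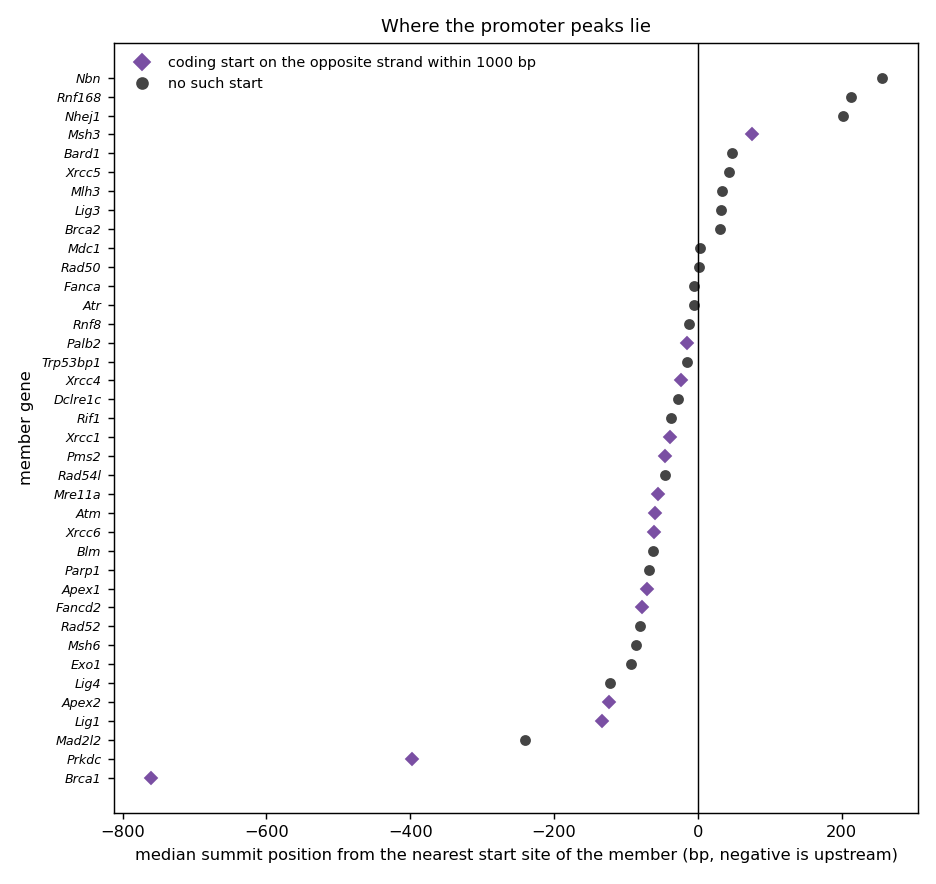
Median position of the summit over the libraries with a peak, in bp from the nearest start site of each member, for the 38 members. Diamonds mark members with a coding start on the opposite strand within 1000 bp; Brca1 and Prkdc lie farthest upstream, at -761 and -397 bp.

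Longer lists mostly held more members with a promoter peak. In order of replicate number, the lists of Brg1 fl/+ held 38, 35, 26 and 29 members and those of Brg1 fl/fl held 33, 24, 33 and 32. The groups overlapped, and the means of 32.0 ± 5.5 (SD, n = 4) and 30.5 ± 4.4 (SD, n = 4) did not differ beyond their spread (two-sided exact permutation test, p = 0.714, smallest possible p 0.0286). With the best 6271 peaks of every list, the length of the shortest, the counts were 26, 29, 26 and 28 in Brg1 fl/+ and 29, 24, 25 and 29 in Brg1 fl/fl. The share of all coding genes with a peak ran in parallel, from 27.5% to 46.8% in Brg1 fl/+ and from 26.8% to 36.1% in Brg1 fl/fl.

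**Figure D2:**
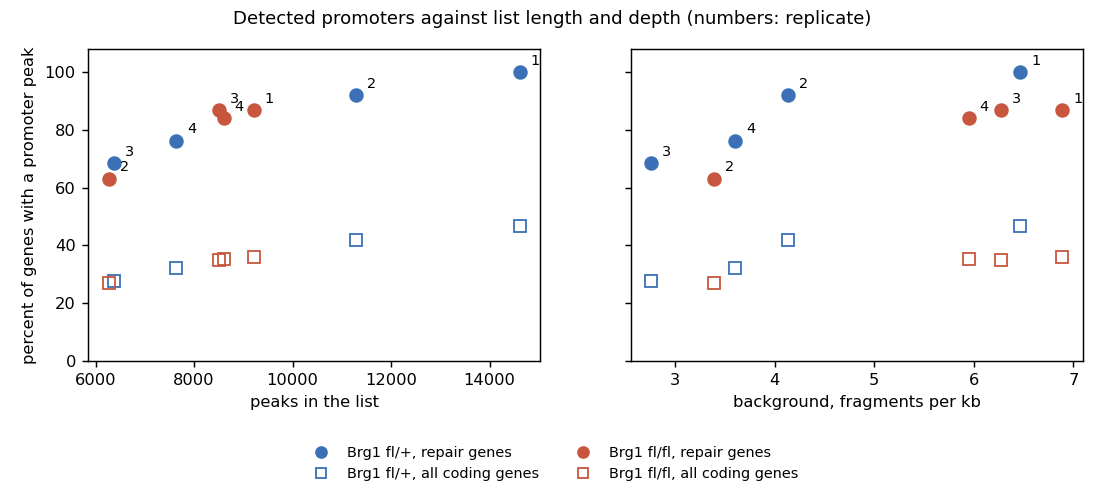
Percent of genes with a promoter peak in each library against the number of peaks in its list (left) and its background in fragments per kb (right). Filled circles are the 38 repair genes and open squares all 21938 coding genes, blue for Brg1 fl/+ and red for Brg1 fl/fl; the longest list (14614 peaks) detected all 38 members and the shortest (6271) detected 24.

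The 21 members present throughout came from all roles but the Fanconi anaemia genes. Of the 7 end joining genes, 5 were in all lists: Lig4, Xrcc4 and Nhej1 (DNA ligase IV, its scaffold and the stimulating factor XLF), Xrcc6 (Ku70, which binds the ends) and Prkdc (the kinase DNA-PKcs). The kinases Atm and Atr, the scaffold Mdc1 and the ubiquitin ligase Rnf8 were too, as were 5 of the 6 genes of base excision and single-strand breaks (Lig1, Lig3, Xrcc1, Parp1 and Apex1). Mad2l2, the shieldin subunit REV7, Nbn of the MRN complex, Brca1, Bard1 and Exo1 of homologous recombination, and Msh3 and Msh6, subunits of the mismatch recognition complexes, completed the list. Neither Fanconi anaemia gene, Fanca nor Fancd2, was in all lists.

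The strength of these peaks ranged widely between members, as the map of folds by library shows. Atm, the kinase that answers double-strand breaks, had the highest mean fold, with 19.7, 18.1, 17.6 and 13.9 in Brg1 fl/+ and 18.1, 13.3, 16.03 and 17.7 in Brg1 fl/fl (here and below in order of replicate number). The genotypes overlapped. Its peak shares the start of Npat, which lies on the opposite strand and encodes a regulator of histone genes.

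At the other end stood Brca1, Apex1 and Exo1. Brca1, which pairs with Bard1 in a ubiquitin ligase of homologous recombination, had folds of 8.51, 10.4, 7.05 and 8.24 in Brg1 fl/+ and 7.93, 8.51, 7.92 and 8.51 in Brg1 fl/fl. Apex1, the main abasic site endonuclease, had 8.95, 11.4, 9.26 and 7.74 in Brg1 fl/+ and 8.28, 7.48, 9.07 and 7.34 in Brg1 fl/fl. In both genes the 2 sets of libraries overlapped. The fold compares a summit with its own surroundings, so its order across genes is not an order of accessibility per length.

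**Figure D3:**
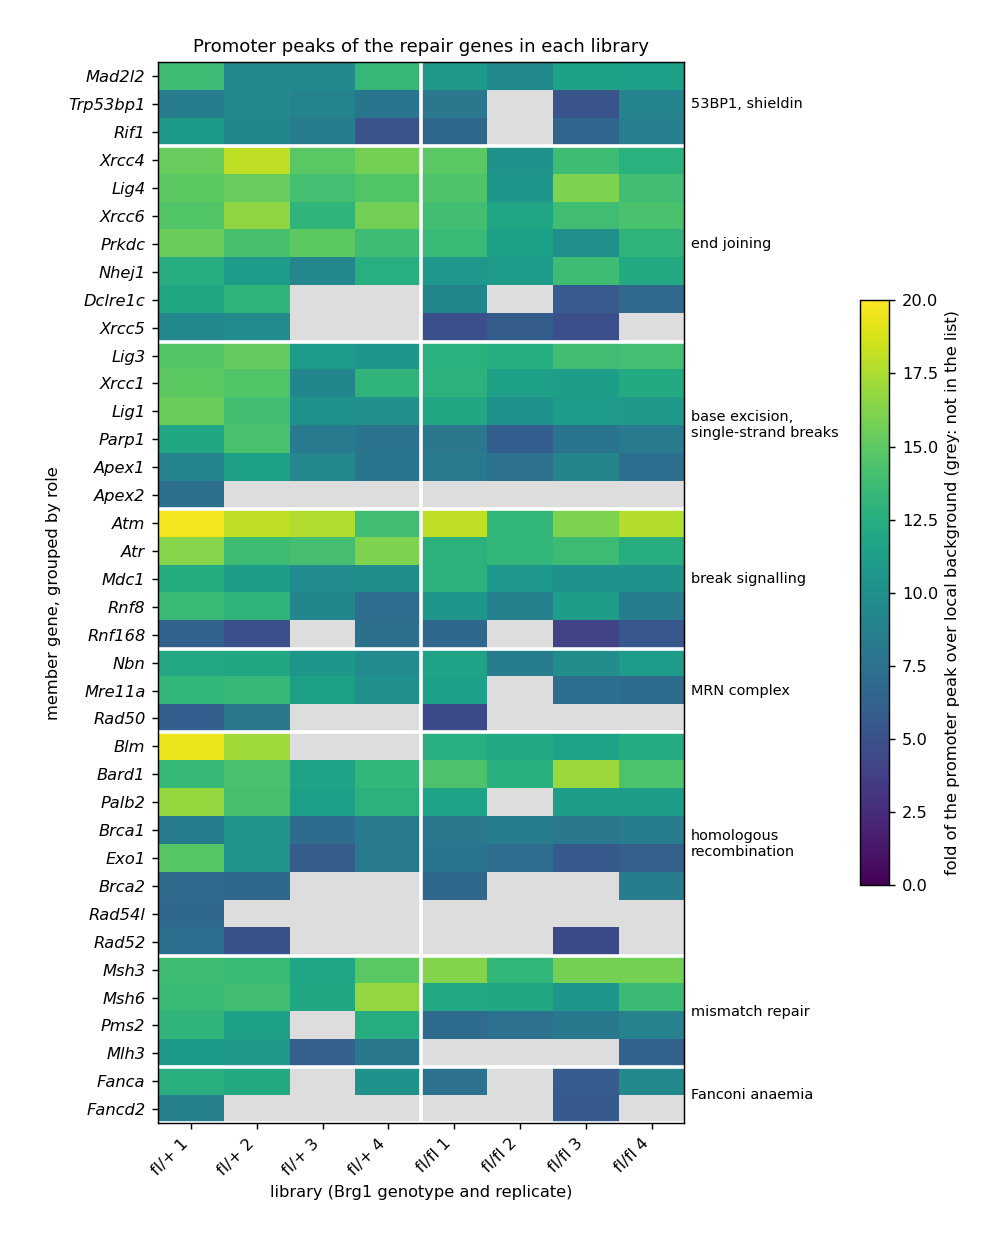
Fold of the promoter peak over local background (color, linear scale from 0 to 20) for the 38 members, grouped by role, in the 8 libraries. Grey cells are promoters missing from a list; the Brg1 fl/+ libraries 3 and 4 and Brg1 fl/fl library 2, with the shortest lists, have most of them.

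The comparison of the genotypes asks whether losing the second copy of Brg1 changed these promoters. Of the 21 members in all lists, 2 were called, both higher in Brg1 fl/fl: Msh3 and Bard1. Over all 4582 regions in all lists, 3.6% were called higher and 2.14% lower (limma on log2 fold, centred on the median of promoter regions in each library, Benjamini-Hochberg adjusted p under 0.05). A region missing from any list did not enter this fit. The median difference of the 21 members was 0.09 on the log2 scale, with 16 above 0, beside a median of 0.03 and 56.3% above 0 over all regions. Over the 3981 promoter regions among these, the median was 0.02 and 54.7% were above 0, with 107 called higher and 85 lower. Centring sets these signs. Without it, the median of all regions shifted to -0.17, 16 of the 21 members were below 0 and 0 were called by limma (4 at an unadjusted p under 0.05), beside 3.43% of all regions, so the differences here are relative to the other promoters of a library. The balance of directions over all regions changed with the setting. With at least 3 libraries of each genotype, 213 regions were called higher in Brg1 fl/fl and 251 lower. Without centring the counts were 6 and 151, and on fragments at the summit 494 and 136. In bulk libraries, fewer cells with an open promoter and less opening per cell cannot be told apart.

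Msh3 (ENSMUSG00000014850.15, combined peak chr13:92354521-92355347 in GRCm38), the mismatch recognition subunit for larger loops, had folds of 13.8, 13.5, 11.8 and 14.9 in Brg1 fl/+, against 16.3, 13.2, 15.8 and 15.8 in Brg1 fl/fl. The raw folds of the genotypes overlapped. After centring, the log2 values were -0.01, 0.00, 0.15 and 0.28 in Brg1 fl/+ and 0.51, 0.49, 0.49 and 0.47 in Brg1 fl/fl, and every Brg1 fl/fl library lay above every Brg1 fl/+ library, as at 13.6% of all tested regions in either direction. The difference was 0.39 (SE 0.10, 95% interval 0.19 to 0.59, adjusted p = 0.0188 by limma), or 1.31-fold, at a peak that could not be assigned to Msh3 alone. With libraries averaged in pairs the adjusted p was 0.0698, and without centring the difference was 0.18 with an adjusted p of 0.329 (0.00691 to 0.329 over 20 alternatives, 13 of them past the threshold). The call was lost without Brg1 fl/+ library 1 (adjusted p = 0.0589), Brg1 fl/+ library 2 (0.0682) or Brg1 fl/fl library 1 (0.0509), all by limma.

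Bard1 (ENSMUSG00000026196.7, combined peak chr1:71102470-71103412 in GRCm38), the partner of Brca1, had folds of 13.4, 14.2, 11.5 and 13.2 in Brg1 fl/+ and 14.4, 12.7, 17.0 and 14.3 in Brg1 fl/fl. Here too the raw folds overlapped, while the centred log2 values (-0.05, 0.07, 0.11 and 0.11 against 0.34, 0.43, 0.59 and 0.33) did not. The difference was 0.36 (SE 0.10, 95% interval 0.16 to 0.57, adjusted p = 0.0289 by limma), or 1.29-fold. With libraries averaged in pairs the adjusted p was 0.0898 (0.0199 to 0.436 over 20 alternatives, 11 of them past the threshold), and in that comparison 0 of the 21 members (4 at an unadjusted p under 0.05) and 1.51% of all regions were called. The call was lost without Brg1 fl/+ library 1 (adjusted p = 0.0842), Brg1 fl/+ library 2 (0.0678) or Brg1 fl/fl library 3 (0.106), all by limma.

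**Figure D4:**
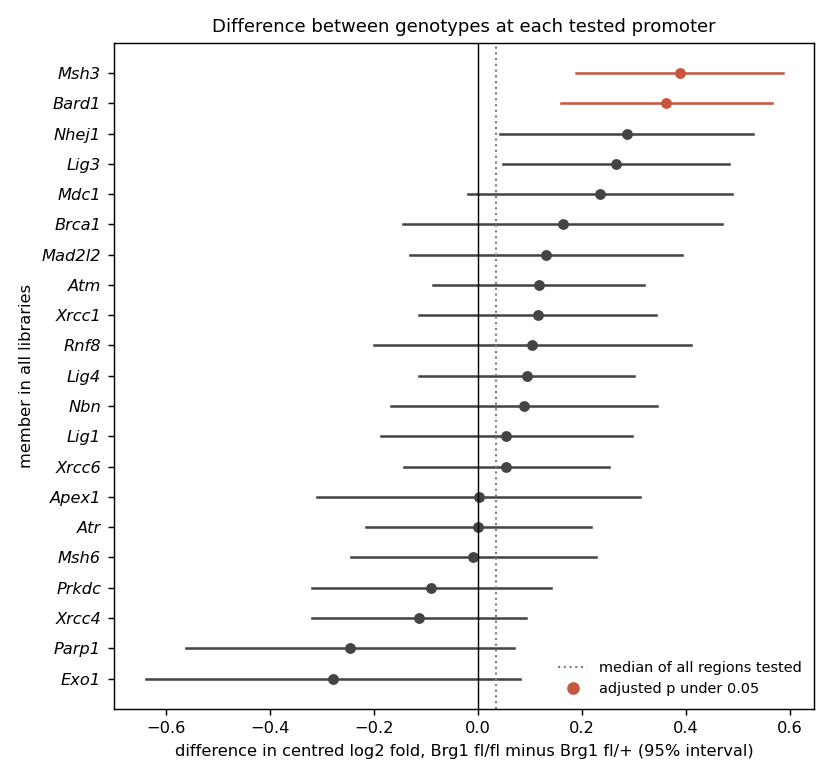
Difference in centred log2 fold between Brg1 fl/fl and Brg1 fl/+ with its 95% interval for the 21 members in all libraries. Msh3 and Bard1 (red) are the members with an adjusted p under 0.05; the dotted line is the median of all 4582 regions, at 0.03.

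Among end joining genes, Nhej1 and Xrcc4 marked the ends of the range. Nhej1 had folds of 12.4, 11.02, 9.25 and 12.5 in Brg1 fl/+ and 10.7, 10.96, 13.8 and 12.3 in Brg1 fl/fl, and the genotypes overlapped in raw and in centred values. The difference was 0.29 (SE 0.12, interval 0.04 to 0.53) and did not pass the test (adjusted p = 0.139 by limma). By the rank of its q in each list, where 0% is the top, Nhej1 stood at 24.03%, 36.5%, 50.3% and 26.3% in Brg1 fl/+ and 23.8%, 23.2%, 14.6% and 20.6% in Brg1 fl/fl, without overlap (two-sided exact permutation test, p = 0.0286, the smallest possible and not adjusted). Separation in this direction, with Brg1 fl/fl nearer the top, was seen at 2.51% of the tested regions. The opposite direction is not included in that share. The lists differ in length, however, and with the best 6271 peaks of each the ranks overlapped, at 56.0%, 65.7%, 51.1% and 32.1% against 35.0%, 23.2%, 19.8% and 28.3% (exact permutation test, p = 0.0571). At that length the ranks of Lig3 and Brca1 did not overlap, with Brg1 fl/fl nearer the top. Lig3 ran from 33.2% to 52.6% in Brg1 fl/+ and from 16.6% to 28.0% in Brg1 fl/fl. Brca1 ran from 53.7% to 71.8% and from 36.3% to 53.5%. Each had the smallest possible p, not adjusted (two-sided exact permutation test, p = 0.0286). On the full lists the ranks of Lig3 and Brca1 overlapped (two-sided exact permutation test, p = 0.114 and 0.486). The ranks of Msh3 and Bard1 overlapped on the full lists (exact permutation test, p = 0.286 for each).

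Xrcc4 had folds of 15.4, 18.1, 14.9 and 15.8 in Brg1 fl/+ and 14.9, 10.2, 13.8 and 12.8 in Brg1 fl/fl. Its difference of -0.11 (interval -0.32 to 0.09, adjusted p = 0.526 by limma) lay within the spread of the libraries. The other end joining members in the fit had differences of 0.09 (Lig4), 0.06 (Xrcc6) and -0.09 (Prkdc).

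Among the 21 members in all lists, the largest differences toward lower values in Brg1 fl/fl were those of Exo1 and Parp1, and neither passed the test. Exo1, the exonuclease that resects ends and excises mismatched strands, had folds of 14.8, 10.3, 5.93 and 8.30 in Brg1 fl/+ and 7.80, 7.15, 5.69 and 6.17 in Brg1 fl/fl. Parp1, the sensor of single-strand breaks, had 11.9, 14.2, 8.16 and 7.67 in Brg1 fl/+ and 7.93, 5.95, 7.79 and 8.19 in Brg1 fl/fl. In both genes the high values were those of Brg1 fl/+ libraries 1 and 2, the longest lists, while libraries 3 and 4 lay within or near the range of Brg1 fl/fl. The differences were -0.28 for Exo1 (interval -0.64 to 0.08, adjusted p = 0.341 by limma) and -0.25 for Parp1 (interval -0.56 to 0.07, adjusted p = 0.339).

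**Figure D5:**
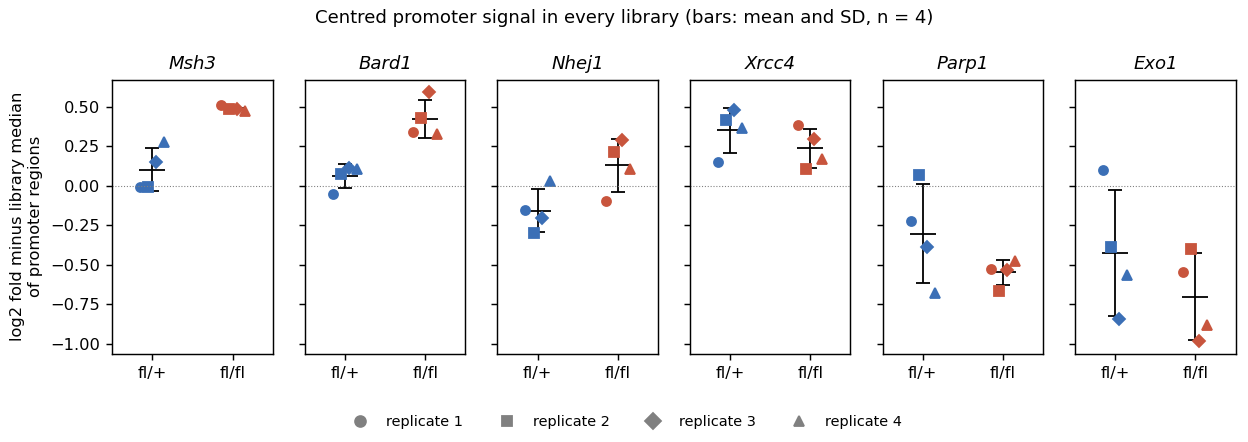
Log2 fold after subtraction of the library's median over promoter regions, for the 3 members with the largest differences in each direction in the 4 libraries of each genotype (symbols: replicate). Bars give the mean and SD; the genotypes do not overlap at Msh3 and Bard1 and overlap at Nhej1, Xrcc4, Parp1 and Exo1.

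The other roles held no call. All 4 break signalling genes tested had a difference at or above 0, from 0.00 (Atr) to 0.24 (Mdc1). The remaining genes of base excision and single-strand breaks ran from 0.00 (Apex1) to 0.27 (Lig3, adjusted p = 0.126 by limma), and Mad2l2, Nbn, Brca1 and Msh6 had 0.13, 0.09, 0.16 and -0.01. On the number of fragments at the summit in place of the fold, Lig3 and Nhej1 were called with Msh3, at 0.44 and 0.49 (adjusted p = 0.0262 and 0.0209 by limma), and Bard1 was not (adjusted p = 0.152), beside 13.8% of all regions. Averaging in pairs was run on the fold only, where the adjusted p was 0.235 for Lig3 and 0.244 for Nhej1 by limma.

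The remaining 17 members were missing from 1 to 7 lists, and none of them separated the genotypes by presence in all libraries of one and none of the other, as 0.124% of the coding genes with a peak did. Over the 38 members, 9 (23.7%) were listed less often in Brg1 fl/fl and 4 (10.5%) more often, beside 32.4% and 11.5% of the coding genes with a peak.

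Mlh3 and Blm differed by 2 or more lists. Mlh3, a MutL homologue of mismatch repair and crossover formation, was in all 4 Brg1 fl/+ lists, at 10.9, 10.8, 6.15 and 8.04, and in Brg1 fl/fl only in library 4, at 6.30. A deficit of 3 or more lists occurred at 1.66% of the coding genes with a peak. Promoter regions of like fold in as many other libraries were listed in Brg1 fl/fl libraries 1, 2 and 3 in 82.9%, 27.01% and 83.5% of cases.

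Blm, the helicase mutated in Bloom syndrome, had the reverse pattern. It had folds of 19.4 and 17.2 in Brg1 fl/+ libraries 1 and 2, no peak in libraries 3 and 4, and 12.6, 12.1, 11.6 and 12.3 in the Brg1 fl/fl libraries. A surplus of 2 or more lists in Brg1 fl/fl was seen at 1.51% of the coding genes with a peak. Of promoter regions with like fold in 6 other libraries, 88.0% (of 50) were listed in Brg1 fl/+ library 3 and 97.7% (of 43) in library 4. The mean fold of Blm where it was listed placed it among the 2005 promoter regions with a mean of 12 or more, of which 155 (7.73%) were missing from some list and 55 from 2 or more. The nearest peaks in the lists of Brg1 fl/+ libraries 3 and 4 lay 210423 and 173506 bp away.

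Of the other partly listed members, 7 were missing from 1 or both of the 2 shortest lists only. Trp53bp1 (53BP1) and Rif1, which shield breaks from resection and serve class switching, Mre11a, the nuclease of the MRN complex, and Palb2, which bridges Brca1 and Brca2, were missing only from Brg1 fl/fl library 2, the shortest list. Pms2, an endonuclease of mismatch repair, was missing only from Brg1 fl/+ library 3, the next shortest, and Rnf168 and Fanca from these 2 lists. Regions of like fold in as many other libraries were listed in Brg1 fl/fl library 2 in 70.2% (Trp53bp1), 68.9% (Rif1), 86.3% (Mre11a) and 95.2% (Palb2) of cases. In Brg1 fl/+ library 3 the share was 87.7% for Pms2. For Rnf168 it was 20.7% in Brg1 fl/+ library 3 and 29.8% in Brg1 fl/fl library 2, and for Fanca 64.8% and 54.5%. For Trp53bp1 the folds were 8.40, 9.61, 8.96 and 7.75 in Brg1 fl/+ and 7.97, 5.16 and 8.95 in Brg1 fl/fl libraries 1, 3 and 4. Rif1 had 10.9, 9.20, 8.44 and 5.19 in Brg1 fl/+ and 6.75, 6.51 and 8.52 in the same Brg1 fl/fl libraries. In both genes the genotypes overlapped.

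When regions in at least 3 libraries of each genotype were fitted, with missing values left out, these 7 members could be compared as well. By limma 0 were called (3 at an unadjusted p under 0.05), beside 7.12% of all regions. Fanca (-0.43, interval -0.80 to -0.06), Mre11a (-0.37, interval -0.69 to -0.05) and Pms2 (-0.37, interval -0.69 to -0.05) had the largest differences of the 7, with adjusted p of 0.136, 0.141 and 0.133 by limma. For Pms2 the fold was 13.1, 11.5 and 12.5 in Brg1 fl/+ libraries 1, 2 and 4. The Brg1 fl/fl libraries had 7.01, 7.46, 8.08 and 8.86. These raw values did not overlap, and neither did those of Fanca. Both members lack a value in Brg1 fl/+ library 3, and the share of regions with such separation was not counted. Raw folds also ran lower with Brg1 fl/fl over promoter regions in all lists. The library medians there averaged 10.9, below the 12.6 of Brg1 fl/+. At Pms2 a coding gene on the opposite strand, Aimp2, starts within 1000 bp of the summit. The differences of Trp53bp1, Rif1, Palb2 and Rnf168 lay between -0.14 and 0.02.

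The remaining promoters were those of Xrcc5 (Ku80), Dclre1c (the hairpin nuclease Artemis), Rad50, Brca2, Rad52, Rad54l, Apex2 and Fancd2. Xrcc5 was in 2 Brg1 fl/+ and 3 Brg1 fl/fl lists, at 9.32 and 9.65 against 4.86, 5.90 and 4.88. Dclre1c had the same counts, at 11.9 and 13.1 against 9.19, 5.74 and 6.92. In both genes the Brg1 fl/+ values came from libraries 1 and 2 alone. Rad50 was in 2 and 1 lists, Brca2 in 2 and 2, Rad52 in 2 and 1 and Fancd2 in 1 and 1, while Rad54l (6.72) and Apex2 (7.39) had a peak only in Brg1 fl/+ library 1, the longest list. Second peaks at other start sites existed for Lig4 (5 libraries, 4.30 to 5.90), Lig1 and Xrcc1 (1 library each) and were weaker than the main peak.

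Other genes of repair and replication gave the background for these members. Of 82 other repair genes, 80 had a promoter peak and 50 were in all lists; 3 were called, all lower in Brg1 fl/fl, and the median difference was -0.02. Among them were the checkpoint kinase gene Chek2 (-0.41, adjusted p = 0.0396) and the helicase gene Brip1 (-0.43, adjusted p = 0.0388), both by limma. With libraries averaged in pairs the adjusted p values were 0.118 and 0.0951. Of 40 replication genes, 37 had a peak and 20 were tested, with a median of -0.09. Among these, 1 was called higher, at a region already counted among the members, and 1 lower. The lower call was Pole, the catalytic subunit of DNA polymerase epsilon (-0.45, adjusted p = 0.0248 by limma, 0.0771 in pairs).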

How the data were processed

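Paired ATAC-seq reads were mapped by the authors to mm10 (Bowtie2), and MACS2 was run on each library separately, as the methods and the submitters' processing notes say; versions and options are not given in the sources used here. The deposited lists give the fold of each summit (a ratio), its −log10 p and −log10 q, a score and the summit. No counts are held, so whole fragments at the summit were recovered from fold and −log10 p (within 0.002; 99.8% of peaks). The 8 RNA-seq libraries were not used here.

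Overlapping or touching peaks were joined into 16566 regions; the highest peak of a member was taken where several lay in its windows (GENCODE M21). The log2 fold of 4582 regions in all lists, on chromosomes 1 to 19, X and Y, centred per library, was tested with limma 3.58.1 (intensity trend, R 4.3.3) without the replicate number, with Benjamini-Hochberg adjustment over all regions and a threshold of 0.05. Fold stood in for the read coverage that the study compared. Exact tests ran over 70 assignments. Members, lists and alternatives were chosen with earlier results of these data known. Members given in every library are those called, the 3 largest differences in each direction, those whose detection differed by 2 or more lists, and the 3 highest and lowest folds; others are named by role. Sequence came from GRCm38. Steps were tested on simulated data. Depth per library is given with the results. Python 3.11.15, numpy 2.4.6, pandas 2.3.3, scipy 1.17.1 and pysam 0.24.0 were used. Some genes of the lists are not reported here.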

Additional observations from a re-analysis of the deposited data

Results flagged for a closer look

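In 53 groups of 4 libraries (the folds of members in all libraries of a genotype, the number of members detected and the members' median fold), 3 had 1 library whose gap to the nearest other passed Dixon's 95% criterion; about 1 group in 20 does so by chance. Brg1 fl/fl library 2 detected 24 members, and the other Brg1 fl/fl libraries 32 to 33. The fold of Msh3 in the same library was 13.2, below 15.8 to 16.3 in the others, while its centred log2 value there, 0.49, lay within the 0.47 to 0.51 of the others. The fold of Mdc1 in Brg1 fl/fl library 1 was 12.8, above 10.3 to 10.6 in the others.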

How the results depend on the processing

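The count of called regions (263) became 69 with libraries averaged in pairs, 138 without the intensity trend, 157 without centring, 464 with at least 3 libraries of each genotype, 630 on fragments at the summit and 575 on −log10 p; with the Brg1 fl/+ libraries alone averaged in pairs, added after the data were seen, it was 40. The count of called members (2) was 0 in pairs, in either form, without the trend and without centring, and 3 on fragments and on −log10 p. Leaving out each library gave 85 to 427 called regions and 0 to 2 called members, and a member median of 0.07 to 0.12; the median was -0.11 without centring. The directions of Msh3 and Bard1 held in all 20 alternatives. Members in all lists numbered 16 to 21 under other peak, window and list settings and 21 to 25 with a library left out. Mlh3 separated the genotypes when the summit had to lie in the window (1 member) and without Brg1 fl/fl library 4 (0 to 1 member over the libraries left out). The median rank difference (-0.94 points) stayed between -4.71 and 1.60. The replicate numbers did not pair the libraries (correlations of deviations 0.01, -0.09, -0.04 and -0.05); with the replicate block, 197 regions and 2 members were called, Msh3 at an adjusted p of 0.0270 and Bard1 at 0.0406 by limma. An intensity-dependent centring, added after the data were seen, gave 252 regions and 2 members. The cause of these changes was not tested. Depth limits what the lists can show of promoters with few fragments.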
